A study of Rattus norvegicus with 8 samples.

Results

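Potassium channel genes were taken as the gene names of the array design that start with Kcn, a family letter or letters and a number, with 1 Kcne subunit left out of the selection. They came to 90 of the 26269 gene names on the array, read by 127 probes, and they fell into 15 families of pore-forming and auxiliary subunits. Hypothalamic RNA from 8 lactating Wistar rat dams on postpartum day 7 was hybridised in 1 colour (Cy3) to Agilent whole rat genome arrays. The 4 exposed dams had been exposed to TCDD, a dioxin that binds and activates the aryl hydrocarbon receptor, and the 4 other dams were controls. The labels and design text name no dose, no route and no day of exposure. The series addresses the effect of dioxin on hypothalamic mRNAs of rat mothers, and a single comparison, TCDD against control dams, follows from its design. The labels number the samples within each group and do not say more on how the dams were kept, so p-values measure the spread between these samples.

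Potassium channels set the resting potential of neurons and glia and end each action potential. Voltage-gated (Kv) channels open on depolarisation, inward rectifiers (Kir) and tandem-pore (K2P) channels hold the membrane near rest, and calcium-activated channels (BK, SK) shape the pause after a spike. In the hypothalamus, ATP-sensitive channels couple glucose to the firing of metabolic neurons, and A-type, BK and SK currents shape the bursts of oxytocin and vasopressin neurons.

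The 4 TCDD arrays lay on 1 slide and the 4 control arrays on another, so slide and exposure cannot be told apart in any value below. Between 61.7% and 66.6% of all probes were well above background (the scanner software's own call) on the TCDD arrays, and between 65.0% and 66.7% on the control arrays. For the potassium channel probes the shares were 72.4% to 78.7% on TCDD arrays and 77.2% to 78.7% on control arrays, and 0 were saturated. Signals were given as log2 of the background-corrected intensity minus the array's 75th percentile (806 to 1077 in TCDD and 756 to 1051 in control arrays), so that 0 is the brightness of the 75th percentile spot. Such a value is comparable between arrays for the same probe and not between probes. Of 13 hypothalamic markers, 12 (Oxt, Avp, Pmch, Hcrt and others, all but Otp) passed the detection filter. So did 7 of 8 thalamus and 5 of 8 striatum markers, so passing it does not tell the hypothalamus from neighbouring tissue. The summed scaled signal of the hypothalamic markers was 185 to 261 on TCDD arrays and 211 to 321 on control arrays. This sum mostly reflects the brightest genes, Pmch, Avp and Oxt, of which Avp (-0.55) and Oxt (-0.22) had negative log2 fold changes (TCDD minus control). Of the 12 markers, 9 had a positive and 3 a negative log2 fold change, with a median of 0.11.

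Most of the channel genes were measurable. With its best probe, a gene was well above background on all 8 arrays for 68 of the 90 names, on 1 to 7 arrays for 12, and on 0 arrays for 10. For some of the 68, another probe of the gene was not. The other probes of Kcnk16, Kcnj5 and Kcnv2 were detected on 0 arrays. A second probe of Kcnk13 was detected on 1 array, and a second probe of Kcnh3 on TCDD arrays 2 and 4 alone. Every measured name of the Kv2, Kv3 and Kv4 families, of the BK and Slo pores, of the Kv beta subunits and of the Kv channel-interacting proteins (KChIPs) was detected on all 8 arrays. The Kv1 family was detected on all arrays through Kcna1, Kcna2, Kcna3, Kcna4, Kcna5 and Kcna6, while Kcna10 was detected on 0 arrays. Among 15 inward rectifiers, 10 were detected on all arrays, and Kcnj2 and Kcnj15 on 0. Among 13 K2P genes, 11 were detected on all arrays, and Kcnk15 on 0. Further names detected on 0 arrays were the intermediate-conductance channel Kcnn4, Kcne1, Kcne3, Kcnmb1 and Kcnmb3. A name on 0 arrays was not well above background with the probes of this design, which sets no upper limit on its mRNA. Kcnj10 (2 TCDD and 4 control arrays) and Kcnq5l (3 TCDD and 4 control arrays) were not detected everywhere and still passed the filter for the test.

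**Figure D1:**
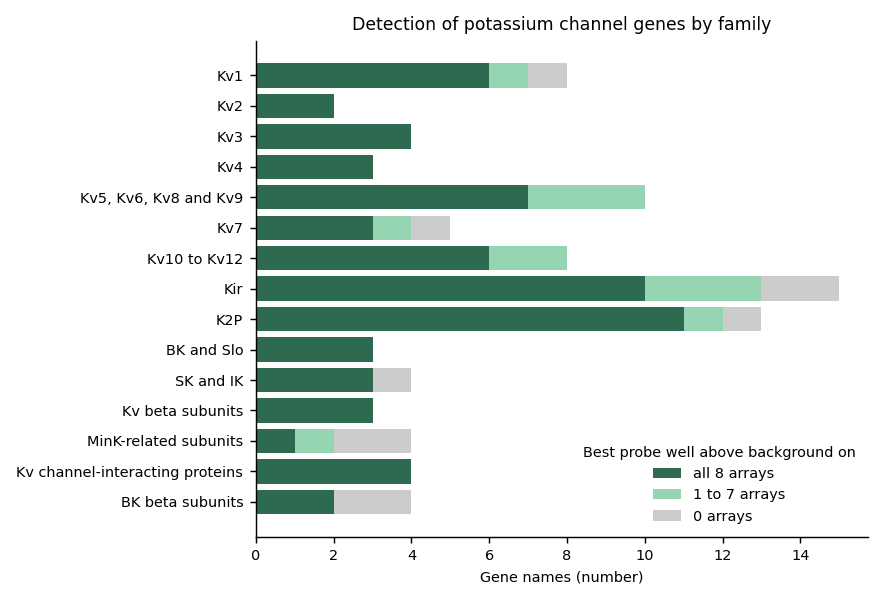
Number of potassium channel gene names (x axis) in each of 15 families (y axis), split by the number of arrays on which the gene's best probe was well above background. In all, 68 names were detected on all 8 arrays, and 10 names, in the Kv1, Kv7, Kir, K2P, SK and IK, MinK-related and BK beta families, on 0.

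A few genes sat at the edge of detection and could not be tested, because the filter asked for a call above background on every array of either group. Kcns1, a silent Kv9 subunit, was above background on 2 TCDD and 3 control arrays. The silent subunit Kcng4 and the renal inward rectifier Kcnj1 were each above background on 1 TCDD array and 3 control arrays, and Kcnh8, of the ELK group, on 1 array of each. In the TCDD group alone, Kcna7 and Kcne4 were above background on 2 arrays each, and Kcnk18 and Kcnh5 on 1 each. These counts are for the best probe of a gene, and all other probes of Kcnj1 and Kcna7 were above background on 0 arrays. In the control group alone, Kcns2 was above background on 1 array. No gene was above background on all arrays of one group and on 0 of the other.

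Of the 90 names, 70 entered the test, a limma fit over all 16572 genes that passed the filter, with a log2 fold change of TCDD minus control. No potassium channel gene passed the adjusted p threshold of 0.05, against 4 of 16572 genes overall (0.0241%), and the smallest adjusted p among them was 0.232. At an unadjusted p under 0.05 in limma there were 5 channel genes (7.14% of the 70), against 10.8% of all genes tested. The 3 that were higher in TCDD dams made 4.29% of the channel genes, against 7.95% of all genes. The 2 that were lower made 2.86%, against 2.82% of all genes. Groups did not overlap, with TCDD higher, for 2 channel genes (2.86%), against 5.33% of all genes, and with TCDD lower for 2 (2.86%), against 1.72%. These shares were near or below the background, except that of groups not overlapping with TCDD lower, which was somewhat larger, though of 2 genes. Limma with a trended, robust variance gave 0 adjusted calls and 5 unadjusted ones as well.

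The channel genes as a list were centred on no difference. Of the 70, 40 had a positive and 30 a negative log2 fold change, with a median of 0.01 against 0.00 for all genes tested. The median size without regard to sign was 0.077, against 0.074 for all genes. The median SE was 0.103, and the median within-group SD was 0.156, against 0.121 for all genes. For 54 of the 70 genes (77.1%, against 80.6% of all genes) the 95% interval of the log2 fold change lay within 0.5 of 0 on both sides. For the other 16 these arrays leave a difference of that size within the interval. In bulk tissue, fewer cells of a type and less RNA per cell cannot be told apart, which holds for each value below.

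**Figure D2:**
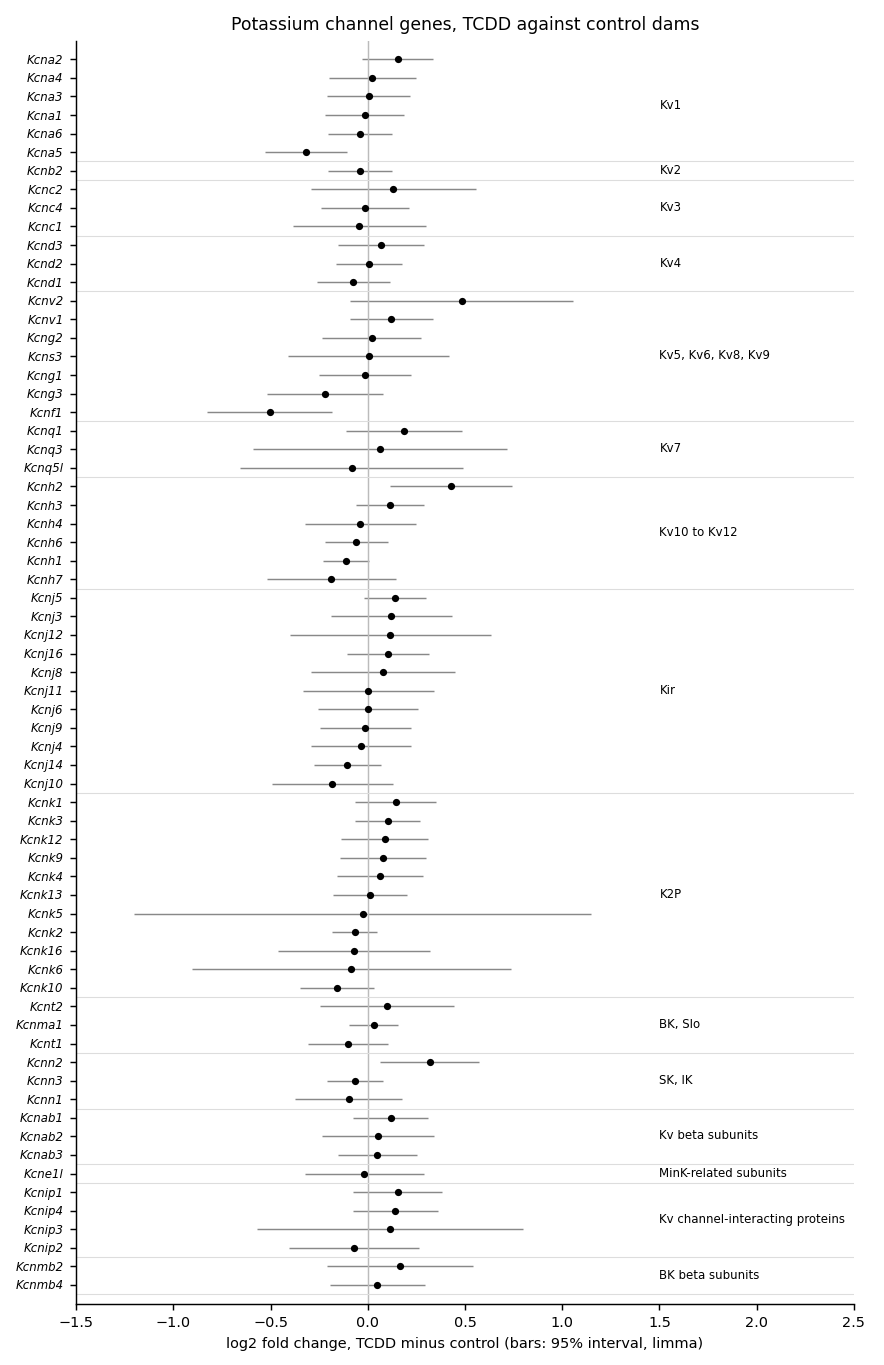
Log2 fold change (TCDD minus control, x axis) of 67 of the 70 tested potassium channel genes with its 95% interval from limma, grouped by family (y axis) and ordered by size within each. The points lie around 0 in every family, from -0.51 for Kcnf1 to 0.48 for Kcnv2, and the widest bars belong to Kcnk5 and Kcnk6.

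In the Kv1 family, which forms low-threshold axonal delayed rectifiers and, through Kcna4, an inactivating A-type current, 3 of 6 tested genes were positive and 3 negative, with a median of -0.01. Kcna5 encodes Kv1.5, known for the ultrarapid potassium current of atrial muscle. Its log2 signal was -3.97, -4.35, -4.04 and -4.10 in TCDD dams 1 to 4, against -3.72, -3.93, -3.81 and -3.73 in control dams 1 to 4. All 4 TCDD values lay below all 4 control values, with a gap of under 0.05 between the closest dams. The difference was -0.32 (SE 0.092, limma adjusted p = 0.252), and -0.18 with the normexp background correction. Its probe lies at chr4:162896330-162896389 on the minus strand of the rat build rn4, is shown as the item that was measured, and reads
Kcna5: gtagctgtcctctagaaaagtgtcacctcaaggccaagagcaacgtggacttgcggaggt
The axonal subunit Kcna2 was at -1.28, -1.26, -1.25 and -0.996 in TCDD dams, against -1.26, -1.33, -1.34 and -1.47 in control dams. The groups overlapped, and TCDD dam 4 stood above its group (0.15, SE 0.079, limma adjusted p = 0.554). Kcna1, its usual partner in axons, averaged 0.95 ± 0.065 in TCDD and 0.96 ± 0.17 in control dams (SD, n = 4 each), with an interval of the difference of -0.22 to 0.19. Kcna4 averaged -2.30 ± 0.18 in TCDD and -2.32 ± 0.096 in control dams, with an interval of -0.20 to 0.25.

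Among the fast Kv channels described here no difference exceeded its error. The Kv3 channels, which allow fast spiking, had 2 positive and 2 negative fold changes. Kcnc1 averaged -0.55 ± 0.25 in TCDD and -0.51 ± 0.22 in control dams. Kcnc2 was at 0.14, -0.05, 0.28 and -0.06 in TCDD dams, against 0.06, 0.27, 0.08 and -0.62 in control dams. Control dam 4 was the low value, also on the second Kcnc2 probe, where it stood at -1.20 against -0.80 to -0.51 in the other controls. On the third it was at -4.01, next to control dam 1 at -4.03. Of the A-type Kv4 channels, Kcnd2 averaged 1.26 ± 0.12 in TCDD and 1.25 ± 0.080 in control dams, with an interval of -0.17 to 0.18. Kcnd3 averaged -2.27 ± 0.19 in TCDD and -2.34 ± 0.087 in control dams.

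The electrically silent subunits (Kv5, Kv6, Kv8, Kv9) form no channel of their own and modify Kv2 channels when they join them. Of their 10 names 7 were tested, with 4 positive and 3 negative fold changes and a median of 0.00. Kcnf1 (Kv5.1) had the smallest p of all channel genes. Its log2 signal was -4.41, -4.74, -4.16 and -4.25 in TCDD dams, against -3.79, -3.79, -4.16 and -3.80 in control dams. All TCDD values lay at or below the lowest control value, which was that of control dam 3 and equalled TCDD dam 3 to 2 decimals. The difference was -0.51 (SE 0.14, limma adjusted p = 0.232), -0.39 without TCDD replicate 2 and -0.28 with the normexp correction. The probe lies at chr6:40911052-40911111 (rn4, minus strand). Its capitals mark a final stop triplet after an otherwise open reading frame, and the gene model around it was not looked up here.
Kcnf1: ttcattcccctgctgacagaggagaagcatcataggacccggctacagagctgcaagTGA
Kcnv2 (Kv8.2), known from photoreceptors, was at -4.00, -3.49, -3.48 and -3.71 in TCDD dams, against -4.81, -4.27, -3.57 and -3.95 in control dams. The groups overlapped, the control values spread over more than 1 log2 unit, and the difference was 0.48 (SE 0.25, limma adjusted p = 0.557). It was 0.21 with the normexp correction and 0.26 without control replicate 1. Kcng3 (Kv6.3) was at -5.50, -5.92, -5.94 and -5.94 in TCDD dams, against -5.64, -5.53, -5.39 and -5.86 in control dams. TCDD dam 1 stood apart from the other 3, among the control values, and the difference was -0.22 (SE 0.13, limma adjusted p = 0.630).

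Kv7 channels carry the M-current, a slow brake on repetitive firing that muscarinic receptors shut off. The neuronal M-current subunit Kcnq3 was at 0.58, 0.44, 0.16 and 0.15 in TCDD dams, against -0.66, 0.56, 0.64 and 0.55 in control dams. Control dam 1 stood far below the other 3 controls, and the difference of 0.06 had an interval of -0.59 to 0.71. It was -0.25 without control replicate 1. A second Kcnq3 probe did not share the low value: it was at -3.31, -3.71, -3.60 and -3.42 in TCDD dams, against -3.44, -3.38, -3.47 and -3.54 in control dams. The probe with the low array lies at chr7:103325194-103325253 and the second at chr7:103327700-103327759 (rn4, minus strand). The first is given by its first 30 bases, and capitals in the second mark a final stop triplet of an otherwise open frame.
Kcnq3, tested probe: gataccaagctaatataggtctagtcagtt
Kcnq3, second probe: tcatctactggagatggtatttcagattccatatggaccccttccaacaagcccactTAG
Kcnq1 and the name Kcnq5l, now Kcnq5, were tested too, and the interval of both included 0.

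In the EAG, ERG and ELK group (Kv10 to Kv12), 2 of 6 tested genes were positive and 4 negative, with a median of -0.05. Kcnh2 encodes ERG1, the channel of the rapid delayed rectifier of heart muscle. Its tested probe was at -0.85, -0.89, -0.68 and -0.67 in TCDD dams, against -1.62, -1.09, -0.99 and -1.10 in control dams. The lowest TCDD dam lay above the highest control dam, and control dam 1 was the lowest of all. The difference was 0.43 (SE 0.14, limma adjusted p = 0.297), and 0.29 without control replicate 1. A second Kcnh2 probe was at -1.89, -1.82, -1.76 and -1.86 in TCDD dams, against -1.52, -1.59, -1.71 and -1.82 in control dams. Here the groups overlapped and the sign was the opposite, at -0.17 (SE 0.074, adjusted p = 0.460 in a limma fit of all probes). With the mean of both probes the Kcnh2 difference was 0.13. The probes lie at chr4:6224194-6224253 and chr4:6222458-6222517 (rn4, plus strand), so the tested probe lies further along that strand. It is given by its first 30 bases.
Kcnh2, tested probe: ctgctcttattgttaaggataataattaag
Kcnh2, second probe: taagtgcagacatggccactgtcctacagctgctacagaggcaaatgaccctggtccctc
Kcnh1 (EAG1) was at 0.70, 0.70, 0.78 and 0.81 in TCDD dams, against 0.92, 0.85, 0.80 and 0.87 in control dams. A single control value lay within the range of the TCDD dams, and the difference was -0.11 (SE 0.051, limma adjusted p = 0.482). Kcnh7 (ERG3) averaged -4.45 ± 0.30 in TCDD and -4.26 ± 0.12 in control dams (interval -0.52 to 0.14).

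Inward rectifiers numbered 15 names, of which 11 were tested, with 7 positive and 4 negative fold changes and a median of 0.00. The G protein-gated (GIRK) subunits open when inhibitory receptors release G protein beta-gamma dimers. Kcnj5 (GIRK4) was at -1.41, -1.53, -1.45 and -1.53 in TCDD dams, against -1.65, -1.73, -1.64 and -1.45 in control dams. Control dam 4 lay within the TCDD range and the other 3 controls below it (0.14, SE 0.070, limma adjusted p = 0.531). Kcnj6 (GIRK2) averaged -3.43 ± 0.23 in TCDD and -3.43 ± 0.087 in control dams (interval -0.25 to 0.26). Kcnj9 (GIRK3) averaged -1.37 ± 0.20 in TCDD and -1.36 ± 0.097 in control dams. Kcnj3 (GIRK1) averaged -1.64 ± 0.23 in TCDD and -1.76 ± 0.19 in control dams, and its second probe had the opposite sign.

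The ATP-sensitive pores Kcnj11 (Kir6.2) and Kcnj8 (Kir6.1) did not differ beyond their error. Kcnj11 averaged -5.22 ± 0.27 in TCDD and -5.23 ± 0.19 in control dams (interval -0.33 to 0.34). Kcnj8, found in pericytes and vascular muscle, was at -1.62, -1.76, -1.98 and -1.85 in TCDD dams, against -1.66, -1.78, -1.70 and -2.38 in control dams, with control dam 4 the low value. Kcnj10 (Kir4.1), which clears extracellular potassium in astrocytes, was above background on 2 TCDD and 4 control arrays. It was at -6.03, -5.96, -6.20 and -5.51 in TCDD dams, against -5.73, -5.79, -5.67 and -5.78 in control dams. The probe passed the filter through the control dams, and in TCDD dams 1 and 3 it was not well above background, so these values have no order relative to the controls. The fitted difference (-0.18, SE 0.13, limma adjusted p = 0.716) includes them. Kcnj14 (Kir2.4) averaged -0.74 ± 0.096 in TCDD and -0.64 ± 0.11 in control dams (-0.11, SE 0.075).

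K2P channels carry the leak current that sets the resting potential. Of 13 names 11 were tested, with 6 positive and 5 negative fold changes and a median of 0.01. Kcnk10 (TREK2) was at -4.27, -4.39, -4.19 and -4.12 in TCDD dams, against -4.01, -4.02, -4.04 and -4.27 in control dams. Control dam 4 lay within the TCDD range, and the other 3 controls lay above it (-0.16, SE 0.082, limma adjusted p = 0.552). A second Kcnk10 probe gave -0.18. The mechanically gated Kcnk2 (TREK1) averaged 1.67 ± 0.030 in TCDD and 1.74 ± 0.069 in control dams (-0.07, interval -0.19 to 0.05). Kcnk1 (TWIK1) averaged 1.23 ± 0.13 in TCDD and 1.09 ± 0.14 in control dams (0.14, interval -0.06 to 0.35). The acid-sensitive Kcnk3 (TASK1) averaged -0.35 ± 0.12 in TCDD and -0.46 ± 0.080 in control dams. Kcnk9 (TASK3) averaged -5.66 ± 0.16 in TCDD and -5.73 ± 0.13 in control dams.

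**Figure D3:**
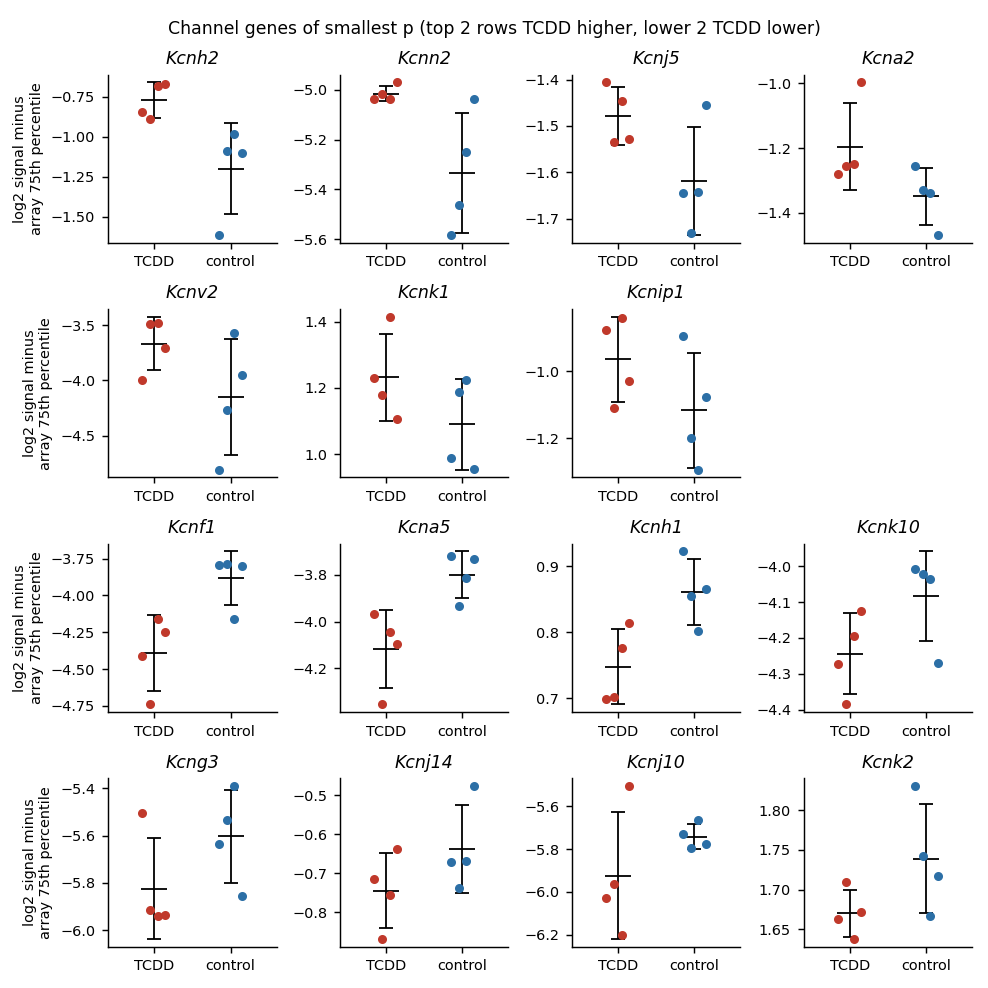
Log2 signal relative to the array's 75th percentile (y axis) in the 4 TCDD and 4 control dams for 15 channel genes among the 8 of smallest p in each direction, with bars for mean ± SD. Kcnh2 and Kcnn2 (TCDD higher) and Kcnf1 and Kcna5 (TCDD lower) are the 4 genes whose groups did not overlap, and none of the 15 passed the adjusted threshold.

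Calcium- and sodium-activated channels included 1 gene whose groups did not overlap on its tested probe. Kcnn2 encodes SK2, which carries the medium afterhyperpolarisation. It was at -5.04, -5.02, -5.04 and -4.97 in TCDD dams, against -5.58, -5.46, -5.25 and -5.04 in control dams. All TCDD values lay at or above the highest control value, that of control dam 4, which equalled the lowest TCDD value to 2 decimals. The difference was 0.32 (SE 0.11, limma adjusted p = 0.346). It was 0.01 with the normexp correction and 0.42 without control replicate 4 (limma adjusted p = 0.113). Kcnn3 (SK3) averaged -1.26 ± 0.093 in TCDD and -1.20 ± 0.063 in control dams (interval -0.21 to 0.08). Kcnma1, the BK pore, averaged -2.24 ± 0.067 in TCDD and -2.27 ± 0.058 in control dams on its tested probe, with an interval of -0.10 to 0.16. On a second Kcnma1 probe, described below, the groups did not overlap (0.28, SE 0.070, adjusted p = 0.209 in a limma fit of all probes). Kcnt1 (Slack), gated by sodium, averaged -0.81 ± 0.17 in TCDD and -0.71 ± 0.070 in control dams.

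The auxiliary subunits had mostly positive fold changes of small size, and none reached an unadjusted p of 0.05. All 3 Kv beta subunits were positive (median 0.05), among them Kcnab1 at -0.54 ± 0.074 in TCDD and -0.66 ± 0.15 in control dams, and Kcnab2 at -3.21 ± 0.14 in TCDD and -3.26 ± 0.24 in control dams. Among the KChIPs, calcium sensors that bring Kv4 channels to the membrane, 3 of 4 were positive (median 0.13). Kcnip4 averaged -0.85 ± 0.16 in TCDD and -0.99 ± 0.12 in control dams. Kcnip3, also known as the transcriptional repressor DREAM, was at -2.77, -3.44, -2.51 and -2.44 in TCDD dams, against -2.39, -2.53, -3.30 and -3.40 in control dams. Each group held both high and low dams, and the interval of the difference ran from -0.57 to 0.80. The BK beta subunits Kcnmb2, which inactivates BK channels, and Kcnmb4, the beta subunit typical of neurons, differed by 0.17 (interval -0.21 to 0.54) and 0.05 (interval -0.20 to 0.29). Kcne1l, now named Kcne5, was the one tested MinK-related subunit, at -4.20 ± 0.19 in TCDD and -4.18 ± 0.23 in control dams.

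Kcnip1 was among the 8 positive channel genes of smallest p and its probes shared a sign. The tested probe was at -0.88, -1.11, -0.84 and -1.03 in TCDD dams, against -0.89, -1.20, -1.30 and -1.08 in control dams, a difference of 0.15 (SE 0.10, limma adjusted p = 0.671). The second probe was at -4.37, -5.10, -4.41 and -4.59 in TCDD dams, against -4.98, -5.14, -5.21 and -5.12 in control dams. Here 3 of 4 TCDD dams lay above all controls, and the difference was 0.50 (SE 0.16, adjusted p = 0.309 in the limma fit of all probes). The sequences are shown because the size differed between probes, and capitals mark a final stop triplet of an otherwise open frame. No position in the genome is given for these probes here.
Kcnip1, tested probe: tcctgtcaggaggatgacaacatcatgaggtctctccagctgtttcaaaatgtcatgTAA
Kcnip1, second probe: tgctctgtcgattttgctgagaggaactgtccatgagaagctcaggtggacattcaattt

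The other probes of a gene give a second reading of the same samples. Of the tested genes 19 had several probes past the filter, which made 25 pairs of the tested probe with another. Probes that failed the filter, such as the second probes of Kcnj5 and Kcnv2, are in none of these pairs. The log2 fold changes had the same sign in 11 of the 25 pairs, and the median gap between them was 0.12. For 8 genes all probes had the same sign and for 11 genes at least 1 differed. The widest gap was that of Kcnj3, with 0.12 on the tested probe and -0.49 (SE 0.28) on the second. That second probe was at -5.93, -6.15, -5.97 and -5.89 in TCDD dams, against -5.87, -4.53, -5.75 and -5.82 in control dams, so that control dam 2 alone was more than 1 log2 unit above the rest. This second probe was not well above background in TCDD dam 1 and passed the filter through the control dams, so its difference is given as a description. For Kcng1 (Kv6.1) the pair was -0.02 and 0.27, for Kcne1l -0.02 and 0.24, and for Kcnk2 -0.07 and 0.18. Kcnd3, with 4 tested probes, ran from -0.09 to 0.12. Signs also differed within Kcnd2, Kcnma1, Kcnmb2 and Kcnq3, by 0.18 or less in each such pair.

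When each of 19097 probes was its own feature, 0 of 95 potassium channel probes passed the adjusted limma threshold, against 4 of all probes (0.0209%). At an unadjusted p under 0.05 in limma there were 5 of the 95 with TCDD higher, a smaller share than the 7.49% of all probes. There were 4 of the 95 with TCDD lower, a somewhat larger share than the 3.03% of all probes. The smallest adjusted p, 0.209, was that of a second probe of Kcnma1. It was at -2.70, -2.56, -2.54 and -2.62 in TCDD dams, against -3.05, -2.81, -2.82 and -2.87 in control dams. Each TCDD dam lay above every control dam (0.28, SE 0.070), while the other Kcnma1 probes gave 0.03 and -0.03. The longest exact run of bases shared by probes of different channel genes was 12 of 60. Matches with mismatches were not searched for, and probes of genes outside the list were not compared.

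**Figure D4:**
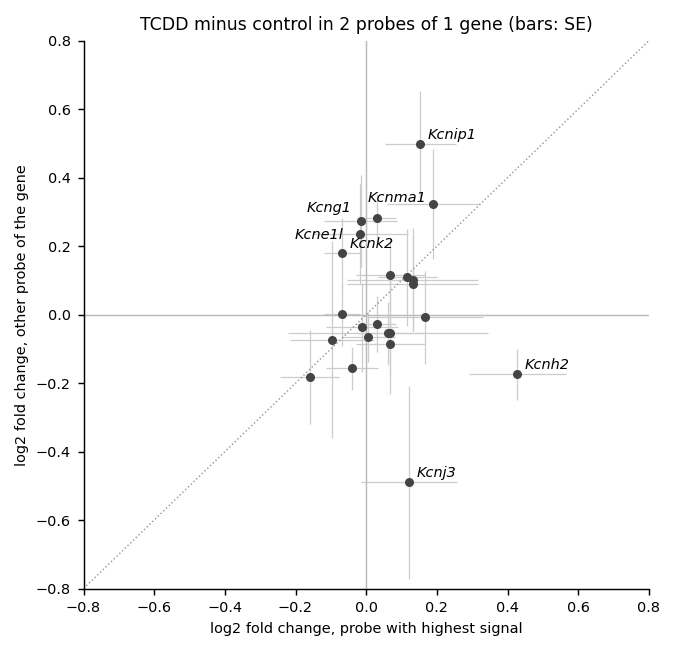
Log2 fold change (TCDD minus control) of the probe with the highest signal (x axis) and of another probe of the same gene (y axis), 23 pairs from 18 genes, with bars for SE and a dotted line of equality. The signs were the same in 11 pairs, and Kcnj3 and Kcnh2 lie farthest from the line.

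Kcnk5 and Kcnk6 had the widest intervals of all 70 tested channel genes, and they were chosen for description after their values were seen. Kcnk5 encodes TASK2, an alkaline-activated channel of epithelia. It was at -4.23, -1.91, -3.80 and -3.70 in TCDD dams, against -4.26, -3.30, -2.92 and -3.05 in control dams. TCDD dam 2 was the highest of the 8 and TCDD dam 1 and control dam 1 the lowest, and the groups overlapped (-0.03, interval -1.20 to 1.15). Kcnk6 (TWIK2) was at -3.45, -2.16, -3.97 and -3.17 in TCDD dams, against -3.52, -3.03, -3.15 and -2.70 in control dams. TCDD dam 2 was again the highest (-0.08, interval -0.91 to 0.74). Without TCDD replicate 2 the differences were -0.53 for Kcnk5 and -0.43 for Kcnk6, with adjusted p above the threshold for both.

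Kcnj13 (Kir7.1), a channel of the choroid plexus and the retinal pigment epithelium, was above background on TCDD array 2 and on control arrays 2, 3 and 4. There it stood at -2.23 in TCDD dam 2, and at -4.35, -3.91 and -3.66 in the 3 control dams, and it was not tested. Markers of the meninges had a similar order of dams. The summed scaled signal of 7 of 7 meningeal markers (Dcn, Lum, Col1a1, Col1a2, Slc6a13, Igf2 and Crabp2) was 2.94, 20.2, 3.05 and 3.31 in TCDD dams, against 3.59, 8.58, 8.75 and 9.80 in control dams. All 7 were measured above the filter, and none was called between groups. The sum of the 4 choroid plexus markers of 8 that passed the filter was 1.85, 4.27, 1.096 and 1.19 in TCDD dams, against 1.79, 1.41, 1.24 and 2.68 in control dams. It was highest in TCDD dam 2 as well, but its order otherwise differed from that of Kcnj13. Control dams 2 and 3, where Kcnj13 was detected, lay below TCDD dam 1 and control dam 1, where it was not. TCDD dam 2 also had the highest sums of mural cell (4.32), striatum (5.49), red blood cell (342) and pituitary (42.8) markers. It was not the highest for the remaining marker lists. Whether the cells of any of these lists had a part in the channel values was not tested.

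**Figure D5:**
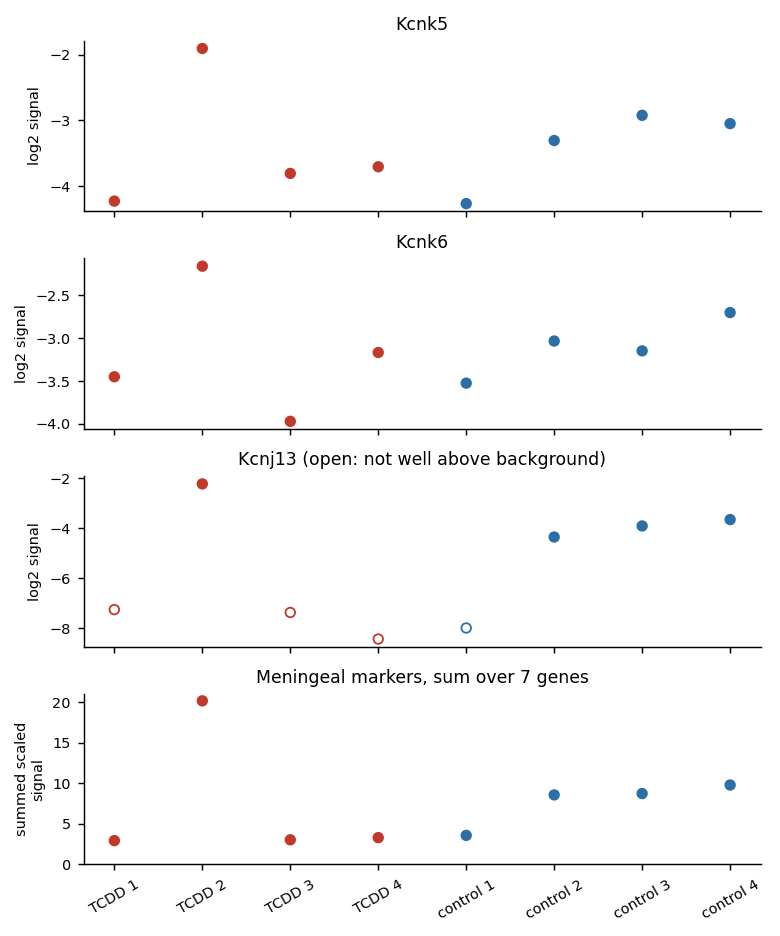
Log2 signal of Kcnk5, Kcnk6 and Kcnj13 (relative to the array's 75th percentile) and the summed scaled signal of 7 meningeal markers in each of the 4 TCDD and 4 control dams, with open points where Kcnj13 was not well above background. TCDD dam 2 is highest in all 4 panels, at -1.91, -2.16, -2.23 and 20.2.

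Other cell type markers differed between dams in part. All 5 red blood cell markers had positive fold changes, 4 of them at an unadjusted p under 0.05 in limma, against 7.95% of all genes, and 0 passed the adjusted threshold. Their sums were 187 to 342 in TCDD and 109 to 290 in control dams, and the groups overlapped through control dam 4. Neuronal markers (6 of 6) summed to 45.5 to 50.4 in TCDD and 46.3 to 52.2 in control dams, and astrocyte markers (7 of 7) to 89.6 to 95.6 in TCDD and 83.9 to 100.1 in control dams. Thalamus markers (7 of 8 measured) were positive in 7 of 7, with a median of 0.26 and sums of 2.84 to 4.67 in TCDD and 2.00 to 3.45 in control dams. Endothelial markers (5 of 6 measured) were positive in 5 of 5, with a median of 0.06 and sums of 4.02 to 4.33 in TCDD and 3.50 to 4.35 in control dams. Markers of the meninges were negative in 7 of 7, with a median of -0.37 and sums of 2.94 to 20.2 in TCDD and 3.59 to 9.80 in control dams. Pituitary markers (4 of 8 measured, without Prl and Gh1) spread widely in both groups, from 0.788 to 42.8 in TCDD and from 0.513 to 34.5 in control dams. Other lists were mixed in sign. Positive and negative genes numbered 2 and 5 for mural cells, 2 and 3 for striatum, 3 and 6 for oligodendrocytes and 3 and 4 for microglia. Cortex and hippocampus markers (3 of 7 measured) were all positive. Emx1 of that list (0.23) and Olig2 of the oligodendrocyte list (0.28) had unadjusted p of 0.0017 and 0.0058 in limma, and adjusted p of 0.154 and 0.225. For Rorb of the thalamus list (0.26) and Trh of the hypothalamus list (0.29), limma gave unadjusted p of 0.039 and 0.043. Their adjusted p in limma were 0.426 and 0.443. No cell type marker was lower in TCDD dams at an unadjusted p under 0.05 in limma. The part of any of these cells in the channel values was not tested.

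Genes that act with potassium channels under other names were read from the same fit. Of 35 partners (pacemaker channels, sulfonylurea receptors, scaffolds and other auxiliary proteins) 31 were tested, with a median of 0.02. In limma 0 reached the adjusted threshold, against 0.0241% of all genes, and 0 an unadjusted p under 0.05, against 10.8%. The smallest p belonged to the pacemaker channel Hcn4, at -2.46, -3.44, -3.27 and -3.45 in TCDD dams, against -3.60, -3.66, -3.46 and -3.54 in control dams. TCDD dam 1 made most of that difference (0.41, SE 0.21, limma adjusted p = 0.550). Lrrc38, a BK gamma subunit, differed by 0.16, and the pacemaker channel Hcn3 by -0.19. Of 17 potassium pump and cotransporter genes 16 were tested, with 0 adjusted calls and a median of 0.00. At an unadjusted p under 0.05 in limma there were 0 of the 16 with TCDD higher, against 7.95% of all genes. There was 1 of the 16 with TCDD lower, a larger share than the 2.82% of all genes, though of a single gene. The kinase Wnk1 did not reach that level. It was at -2.24, -2.33, -2.10 and -2.07 in TCDD dams, against -2.34, -2.42, -2.23 and -2.36 in control dams. The groups overlapped, and the difference was 0.15 (SE 0.075, unadjusted p = 0.0724 and adjusted p = 0.521 in limma).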

How the data were processed

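The authors deposited scanner files of linear spot intensities. Per the file headers, these came from Agilent Feature Extraction (version 10.7.1.1), the processed signal had its background subtracted and spatial trends removed, and probe positions refer to the rat build rn4. The authors' deposited value table, also linear intensities, with centring not stated, served as an alternative.

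Each processed signal was taken to log2, and the 75th percentile over 42877 non-control spots was subtracted within the array. Spots marked as outliers and 1377 control spots were left out, and spots of a probe were averaged. A probe entered the test if every one of the 4 arrays of either group called it well above background, and the probe of highest mean signal stood for a gene name. TCDD and control dams (4 each, grouped by the labels' agent) were compared with limma 3.58.1 in R 4.3.3 (lmFit, then eBayes, with 2-sided tests and no covariate), with Benjamini-Hochberg adjustment over 16572 genes. The test was checked on simulated data. The number of arrays limits the precision. Figures used Python 3.11.15 and matplotlib 3.10.9.

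The members, families and lists were chosen with earlier results of these data known. Values are given for the 8 tested members of smallest p in each direction, 35 subunits chosen as well known, members on the edge of detection, genes whose probes differ in sign, and the 3 partners and 3 pump or cotransporter genes of smallest p. Kcnk5 and Kcnk6 were added after their values were seen. Of all these lists, 6 genes are not reported here, and the counts over the list include them. Accessions matched 115 of 127 probes to current rat gene symbols, and all 90 names had one. Alternatives concerned background correction (normexp, offset 50), scaling, the authors' table, the filter, several probes of a gene, the variance model, the replicate block and each sample left out. No gene models of rn4 were used, and the place of a probe within its transcript is not stated.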

Additional observations from a re-analysis of the deposited data

Results flagged for a closer look

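Among 86 groups of 4 dams (TCDD or control, for the named genes), 8 held a dam whose distance to the nearest other, as a share of the group's range, exceeded Dixon's 95% critical value for 4 samples. These were 9.30% of the groups, where chance gives about 5%, or about 1 in 20, for independent, normally distributed samples. The groups all come from the same arrays, and some of the genes were named for their p or after their values were seen. The same share over all genes tested is not given, so these percentages do not show an excess in channel genes. Of the TCDD dams, Kcnc1 was low in dam 2, at -0.92 against -0.47 to -0.38 in the other 3 (share 0.843). Kcnk3 was low in the same dam, at -0.53 against -0.31 to -0.27 (share 0.832). Kcna2 was high in TCDD dam 4, at -0.996 against -1.28 to -1.25 (share 0.890), and Kcng3 was high in TCDD dam 1, at -5.50 against -5.94 to -5.92 (share 0.943).

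Of the control dams, Kcnf1 was low in dam 3, at -4.16 against -3.80 to -3.79 (share 0.968), the widest of the 8. Kcnk10 was low in control dam 4, at -4.27 against -4.04 to -4.01 (share 0.893), and so was Kcnj8, at -2.38 against -1.78 to -1.66 (share 0.832). Kcnq3 was low in control dam 1, at -0.66 against 0.55 to 0.64 (share 0.934), on one of its probes. The cause was not tested.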

How the results depend on the processing

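No channel gene passed the adjusted limma threshold under any of the 17 alternatives listed in the processing summary, with a smallest adjusted p of 0.113, for Kcnn2 without control replicate 4. The 5 members at an unadjusted p under 0.05 became 3 with normexp (1 of them lower). Those with TCDD higher, 3 as reported, became 5 with no filter. With a sample left out, the total ran from 5 to 9 (9 without control replicate 4 or TCDD replicate 4), those higher from 3 to 5 (5 without control replicate 4 or TCDD replicate 2) and those lower from 2 to 5 (5 without TCDD replicate 4). Their share ran from 4.29% to 12.9%, below that of all genes (6.52% to 12.9%) in 13 of 17 alternatives. The replicate block gave 0 adjusted calls, 6 at an unadjusted p under 0.05 and a smallest adjusted p of 0.136. The numbers were not taken to pair the samples, since deviations of same-numbered samples correlated at 0.23, -0.0031, -0.046 and 0.10. Among all genes the 4 adjusted calls became 20 with normexp, 27 with median scaling, 34 with the trended robust variance, and 0 with no filter or the replicate block, and ran from 0 to 7 with a sample left out.

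Of 43 named genes 21 kept their sign throughout. Signs turned with normexp for Kcnk9 (-0.10), Kcnab2 (-0.0088), Kcna4 (-0.023), Kcna1 (0.031), Kcnd2 (-0.029), Kcnj11 (-0.055) and Kcnj6 (-0.011). With quantile scaling Kcnj11 (-0.038) and Kcnj6 (-0.027) turned, and with median scaling Kcnd2 (-0.00034), Kcnj11 (-0.0036) and Kcnj6 (-0.0052). With the authors' table they were -0.0061, -0.047 and -0.042. The mean of a gene's probes turned Kcnk2 (0.037), Kcnj3 (-0.18), Kcng1 (0.13), Kcne1l (0.11) and Kcnd2 (-0.030). Leaving out a sample gave ranges that crossed 0 for 19 genes: Kcna1 (-0.086 to 0.054), Kcna4 (-0.034 to 0.096), Kcnab2 (-0.026 to 0.14), Kcnc1 (-0.15 to 0.080), Kcnc2 (-0.059 to 0.24), Kcnd2 (-0.028 to 0.064), Kcne1l (-0.10 to 0.064), Kcng1 (-0.063 to 0.063), Kcnip3 (-0.050 to 0.33), Kcnj6 (-0.064 to 0.11), Kcnj8 (-0.088 to 0.15), Kcnj9 (-0.082 to 0.051), Kcnj11 (-0.089 to 0.12), Kcnk5 (-0.53 to 0.25), Kcnk6 (-0.43 to 0.18), Kcnma1 (-0.0025 to 0.058), Kcnmb2 (-0.0031 to 0.27), Kcnmb4 (-0.011 to 0.12) and Kcnq3 (-0.25 to 0.18). None of these differences was called in the first place, and the cause was not tested. Fitting every probe as its own feature was chosen after seeing the data. With normexp Kcnn2 differed by 0.013, against 0.32 as reported, Kcnv2 by 0.21, against 0.48, and Kcnj10 by -0.17, against -0.18. Signal over background limits what can be said of Kcnj10, which was not well above it on every TCDD array.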
